A study of Mus musculus with 9 samples.

Results

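Claudins are the membrane proteins that form the strands of tight junctions, the seals between neighbouring epithelial or endothelial cells. Each claudin sets how easily ions, water or larger molecules pass between cells, and every segment of the nephron expresses its own combination, so a claudin transcript in a kidney sample also marks where its RNA may come from. The 10 claudin genes described here were chosen by symbol as those known from a nephron segment: Cldn5 of the glomerulus, Cldn1 of the parietal epithelium that lines Bowman's capsule, Cldn2 of the proximal tubule, Cldn10, Cldn16 and Cldn19 of the thick ascending limb (Cldn10 also of the proximal tubule), and Cldn3, Cldn4, Cldn7 and Cldn8 of the distal nephron and collecting duct. All 10 were found among the 16867 genes of the deposited table, and all 10 passed the filter on low values.

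The RNA came from glomeruli isolated by magnetic bead perfusion from male C57BL/6 mice aged 30 to 35 days. The 4 Cosmc KO animals carried Podo-Cre, a Cre recombinase transgene meant to act in podocytes, together with a floxed X-linked Cosmc allele (Podo-Cre; Cosmc Y/flox). Of the 5 controls, 3 (numbers 1, 4 and 5) had the Podo-Cre transgene and an intact allele (Podo-Cre; Cosmc Y/+), control 2 carried the floxed allele without Cre (Cosmc Y/flox) and control 3 carried neither (Cosmc Y/+). Cosmc, listed as C1galt1c1, is a chaperone of the enzyme that builds core 1 mucin-type O-glycans, and deletion was directed at podocytes, whereas the isolated glomeruli also hold endothelial, mesangial and parietal cells and some attached tubule.

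Values are normalized read counts, which are gene read counts divided by the authors' size factor for each library. Recovered reads over the listed genes came to 31.5 to 58.1 M reads per library, and the least counted claudin, Cldn3, had 63 to 627 reads in a library. The targeted gene checked the labels: C1galt1c1 read 1385 to 1552 in the controls and 751 to 1123 in Cosmc KO (log2 fold change -0.63 ± 0.11 SE, limma adjusted p = 0.0111). It was not called against the Cre-carrying controls alone (-0.61, limma adjusted p = 0.081). Podocyte markers were plentiful: the 13 listed, with Podxl among the most abundant, summed to 381115 to 1398316 normalized reads in a library and none was at 0. Tubule RNA was also plentiful in some libraries. The 20 proximal tubule markers summed to 747893 in Cosmc KO 2 and 629659 in Cosmc KO 3, above the podocyte sums of 381115 and 557276 there. In all other libraries the podocyte sum was the higher. Across all 16764 genes tested with limma, 7.74% were called, 4.16% as higher and 3.58% as lower in Cosmc KO, at a Benjamini-Hochberg adjusted p under 0.05. Every fold change below is the Cosmc KO mean minus the control mean of log2(value + 1), a scale that understates the change of low genes.

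The promoters of 4 claudins are shown first: those of Cldn1 and Cldn5, the 2 members whose groups were separated in the data, and those of Cldn3 and Cldn4, neighbours on chromosome 5 that point away from each other. Each runs 5′ to 3′ on the gene's own strand from 250 bases before to 50 bases after the RefSeq start in GRCm38.p6. Capitals mark matches on either strand to the GC box GGGCGG, the CCAAT box, the TATA box TATAAA and CAGGTG, the E-box bound by Snail and Zeb repressors. The Cldn1 promoter lies on the minus strand at chr16:26371790-26372089, the Cldn5 promoter on the plus strand at chr16:18776597-18776896, the Cldn3 promoter on the plus strand at chr5:134985964-134986263 and the Cldn4 promoter on the minus strand at chr5:134946885-134947184.
Cldn1: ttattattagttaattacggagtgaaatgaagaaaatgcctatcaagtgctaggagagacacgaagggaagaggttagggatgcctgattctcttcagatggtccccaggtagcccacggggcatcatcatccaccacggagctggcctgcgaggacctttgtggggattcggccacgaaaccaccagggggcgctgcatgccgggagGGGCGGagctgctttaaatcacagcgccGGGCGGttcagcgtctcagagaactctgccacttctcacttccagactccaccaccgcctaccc
Cldn5: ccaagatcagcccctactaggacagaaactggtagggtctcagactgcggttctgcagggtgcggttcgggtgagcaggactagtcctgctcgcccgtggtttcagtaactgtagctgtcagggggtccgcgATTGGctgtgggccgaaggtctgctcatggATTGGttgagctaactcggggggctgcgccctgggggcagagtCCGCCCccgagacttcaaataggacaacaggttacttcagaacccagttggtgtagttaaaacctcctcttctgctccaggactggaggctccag
Cldn3: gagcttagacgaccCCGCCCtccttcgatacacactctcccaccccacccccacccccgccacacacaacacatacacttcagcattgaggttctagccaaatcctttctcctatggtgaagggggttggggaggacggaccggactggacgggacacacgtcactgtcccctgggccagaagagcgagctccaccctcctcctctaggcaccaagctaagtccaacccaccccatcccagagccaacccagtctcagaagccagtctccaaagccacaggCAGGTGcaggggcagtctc
Cldn4: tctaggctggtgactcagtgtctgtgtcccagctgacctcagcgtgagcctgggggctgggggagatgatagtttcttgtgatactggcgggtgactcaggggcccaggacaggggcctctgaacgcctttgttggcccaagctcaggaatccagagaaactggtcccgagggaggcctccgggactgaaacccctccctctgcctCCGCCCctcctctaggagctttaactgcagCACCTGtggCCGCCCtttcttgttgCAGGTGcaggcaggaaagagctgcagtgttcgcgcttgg

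The letters describe the windows and do not show a bound site. Cldn1 had 2 GC boxes and no CAGGTG, Cldn5 had 1 GC box and 2 CCAAT boxes, Cldn3 had 1 GC box and 1 CAGGTG, and Cldn4 had 2 of each of these last motifs; no 2 of the matches overlap in these 4 windows. Of all 32817 RefSeq promoter windows of 300 bases, 35.6% held GGGCGG, 37.4% held CCAAT, 20.2% held CAGGTG and 13.6% held TATAAA. Among the 12 windows found for 9 of the 10 claudins, TATAAA occurred only in that of Cldn2. Cldn10 has 2 annotated starts with very different windows: 1 had 36% G and C with 4 CpG dinucleotides, and the other 72% with 27, against a median of 52.7% and 7 over all promoters. Its 2 starts are known to give separate proteins in the proximal tubule and the thick ascending limb, and the deposited counts add them together.

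**Figure D1:**
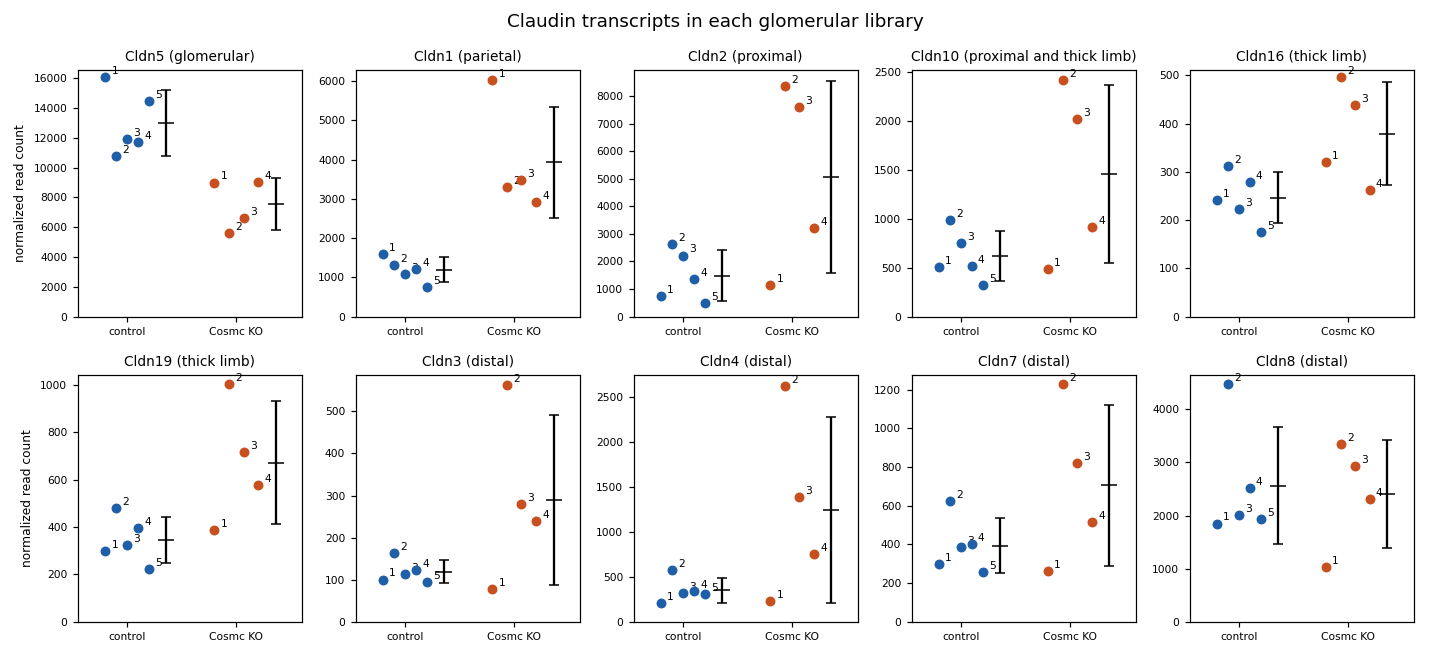
Normalized read counts (y axis, linear, from 0) of the 10 claudins in the 5 control (blue) and 4 Cosmc KO (orange) libraries; numbers are the replicate numbers and black bars the group mean ± SD. The groups are separated for Cldn5 (lower in Cosmc KO) and Cldn1 (higher), and in 7 of the other 8 panels Cosmc KO 2 is the highest library, the exception being Cldn8.

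Of the 10 claudins, Cldn1 rose, Cldn5 fell and 8 did not pass. The counts of 1 higher and 1 lower are set against 4.16% and 3.58% of all genes. By the ranges of the libraries, the same pair was the only one whose groups did not overlap, as was the case for 5.83% of all genes in the higher and 6.11% in the lower direction. The median log2 fold change over the 10 was 0.96, against 0.00 over all genes, with 8 positive and 2 negative values.

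Cldn5, the claudin that seals endothelial tight junctions at the blood-brain barrier and is also known from podocytes, was by far the most abundant member. It lies on the plus strand of chromosome 16, from 18776847 to 18778262 in GRCm38. The 5 controls read 16065, 10766, 11936, 11756 and 14481 normalized counts, and the 4 Cosmc KO libraries 9005, 5604, 6602 and 9031. Every Cosmc KO library was below every control. The mean fell from 13001 ± 2194 (SD, n = 5) to 7561 ± 1732 (SD, n = 4), a log2 fold change of -0.80 ± 0.17 SE (limma adjusted p = 0.0233). The call was lost against the Cre-carrying controls alone (-0.92, limma adjusted p = 0.0573) and when control 1, control 5, Cosmc KO 2 or Cosmc KO 3 was left out (limma adjusted p = 0.0528 to 0.0797). Once the mean log2 level of the 20 proximal tubule markers entered the fit, the Cldn5 fold change shrank to -0.53. Cldn5 was then still called, but close to the threshold of 0.05 (limma adjusted p = 0.0473).

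Whether Cldn5 moved with podocyte or endothelial transcripts was examined by subtracting, in each library, the mean log2(value + 1) of a marker list from that of Cldn5. Relative to 13 podocyte markers, Cldn5 was at -1.72 ± 0.06 in controls and -1.64 ± 0.29 in Cosmc KO (SD, n = 5 and 4), a difference of 0.08 (two-sided exact permutation p = 0.563, adjusted over 12 claudin and list pairs to 0.615). Relative to 12 endothelial markers, led by Ehd3 and Eng, Cldn5 stood at -0.92 ± 0.25 and -1.84 ± 0.27, with no overlap (difference -0.93, exact permutation p = 0.00794, the smallest that 126 splits allow, adjusted p = 0.019). The difference was negative against all 12 endothelial markers taken singly, with separated groups for 10. Cldn5 alone already separated the groups, and the endothelial score was 14.5 to 14.8 in controls and 14.6 to 14.9 in Cosmc KO. The ratio to the endothelial list therefore largely repeats the fold change of Cldn5. In bulk RNA, fewer cells of a type and less RNA per cell cannot be told apart. Of the 13 podocyte markers 6 fell and none rose, with a median log2 fold change of -0.92, whereas 2 of the 12 endothelial markers rose and none fell (median 0.16). The part of these markers in the Cldn5 result was not tested beyond these ratios. The podocyte sum ranged over 953855 to 1398316 in controls and 381115 to 1029639 in Cosmc KO, the endothelial sum over 361323 to 453364 and 401878 to 496382, and no marker of either list was at 0.

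Cldn1 is a barrier claudin best known from the epidermis and, in the mouse glomerulus, from the parietal epithelium. It was the only member called as higher by limma with all libraries and group as the only term. It lies on the minus strand of chromosome 16, from 26356642 to 26371841. Its controls read 1601, 1317, 1092, 1209 and 752, and its Cosmc KO libraries 6027, 3302, 3473 and 2916. The lowest Cosmc KO library was above the highest control, and Cosmc KO 1 was the highest of all 9. From 1194 ± 311 (SD, n = 5) the mean rose to 3929 ± 1418 (SD, n = 4), a ratio of 3.29 and a log2 fold change of 1.70 ± 0.25 SE (limma adjusted p = 0.00394). Adjusted for the proximal tubule score the value was 1.81 (limma adjusted p = 0.00521), without Cosmc KO 1 it was 1.47 (limma adjusted p = 0.0029), and against the Cre-carrying controls alone 1.73 (limma adjusted p = 0.0319).

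Of the 10 parietal epithelial markers 3 rose, 1 fell and 6 did not pass, against 4.16% and 3.58% of all genes, and their median log2 fold change was 0.76. Their score was 9.89 to 10.37 in the controls and 10.60 to 11.01 in Cosmc KO, and lowest among the Cosmc KO libraries in number 1, where Cldn1 was highest. Relative to this score Cldn1 was at 0.00 ± 0.38 in controls and 1.08 ± 0.59 in Cosmc KO, with no overlap (exact permutation p = 0.00794, adjusted p = 0.019 over the 12 pairs). Against single markers the difference was positive for 8 of 10 and separated the groups for 4, while it was -0.26 against Aldh1a2, which encodes a retinoic acid-making enzyme, and -0.12 against the adhesion receptor gene Vcam1, the markers named here for being the exceptions. The summed level of the list, to which Cd24a and Akap12 contribute most, overlapped between the groups (36285 to 40624 in controls, 36840 to 48200 in Cosmc KO). No parietal marker was at 0, and several, such as Pax8 and Cd24a, are also known from tubules. The part of parietal or tubule RNA in the Cldn1 value was not tested beyond these ratios and the covariate.

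**Figure D2:**
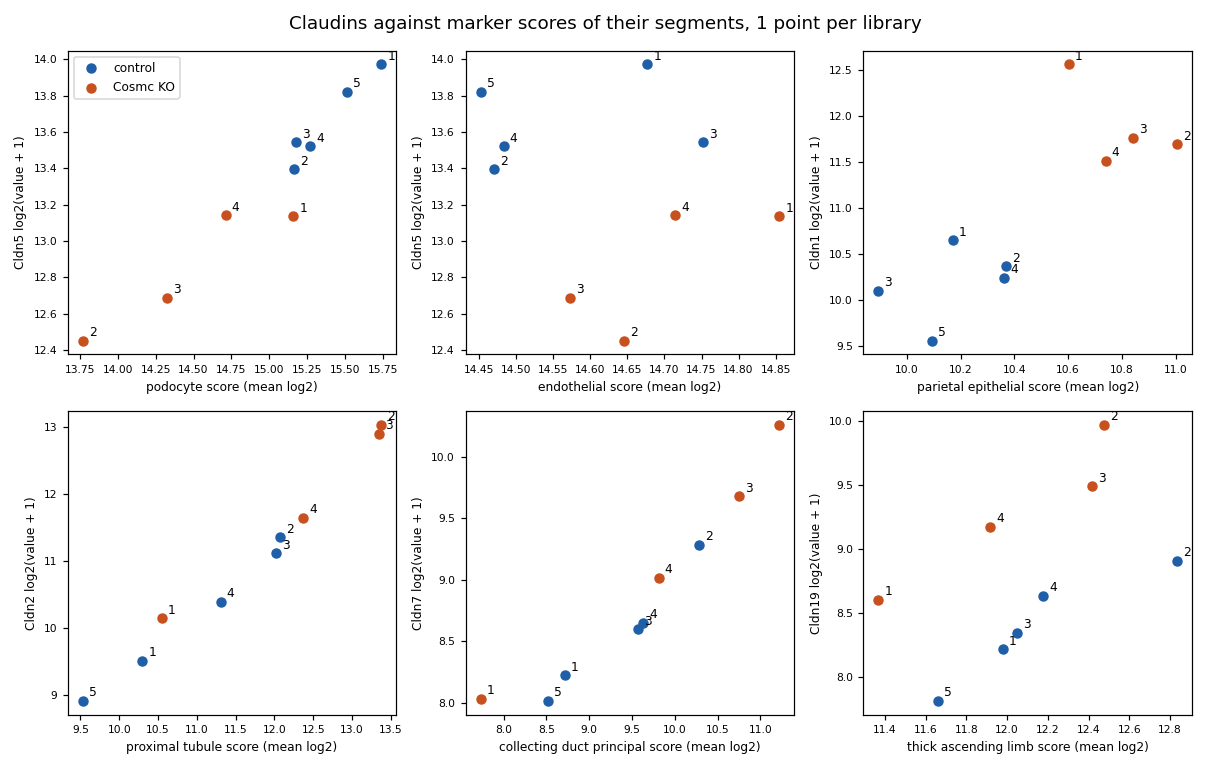
Log2(value + 1) of a claudin (y axis) against the mean log2(value + 1) of a marker list (x axis), 1 point per library, numbered by replicate. Cldn5 and the podocyte score are both lower in Cosmc KO with separated groups, so that panel includes the group difference. The endothelial score overlaps between the groups. Cldn1 of Cosmc KO 1 stands above its parietal score, and Cldn2 and Cldn7 follow their tubule scores in both groups. For Cldn19 the Cosmc KO libraries lie above the controls at a like thick limb score.

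The tubule claudins were spread widely, and the spread followed the library. Cldn2, the cation and water pore of the proximal tubule (X chromosome, plus strand, 139800828 to 139811386), read 733, 2621, 2216, 1346 and 483 in controls and 1133, 8363, 7621 and 3199 in Cosmc KO. Cosmc KO 1 lay inside the control range, and the other 3 Cosmc KO libraries lay above it. The log2 fold change was 1.67 ± 0.66 SE with a 95% interval of 0.19 to 3.15 (limma adjusted p = 0.142). It fell to 0.34 (0.09 to 0.60, limma adjusted p = 0.141) after adjustment for the proximal tubule score and was 2.26 (limma adjusted p = 0.0186) without Cosmc KO 1.

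The 20 proximal tubule markers, led by Gpx3 and Slc34a1, had a median log2 fold change of 1.43 with none called. They summed to 52970 to 261284 normalized reads in controls and 85105 to 747893 in Cosmc KO, and none was at 0. Cldn2 correlated with their score over the 9 libraries at a Pearson r of 0.99 (exact permutation p = 2.76e-06, which the 362880 pairings cannot undercut, and 3.31e-05 when adjusted over 12 pairs). Spearman's rho was 1 (exact permutation p = 5.51e-06, adjusted p = 6.61e-05), so the libraries had the same order in both measures. Without controls 1 and 5, the libraries farthest from the median score, r was 0.98. Relative to the score Cldn2 differed by 0.30 (exact permutation p = 0.0397, adjusted p = 0.0595), and the groups overlapped.

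In the thick ascending limb, claudins 16 and 19 together form the paracellular path for calcium and magnesium, and Cldn10 contributes the path for sodium. Cldn16 (chromosome 16, plus strand, 26463135 to 26482765) lies 91.3 kb from Cldn1. Its values were 242, 313, 223, 280 and 175 in controls and 320, 496, 440 and 262 in Cosmc KO, where Cosmc KO 4 fell inside the control range. Cldn19 (chromosome 4, plus strand, 119255414 to 119262438) read 297, 480, 324, 398 and 224 against 388, 1004, 719 and 578. Here Cosmc KO 1 overlapped the controls and the other 3 lay above them. Cldn10 (chromosome 14, plus strand, 118787908 to 118875489) read 510, 988, 755, 515 and 325 against 488, 2416, 2020 and 913. Only Cosmc KO 2 and 3 were above all controls.

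None of the 3 passed. The log2 fold changes were 0.60 (95% interval 0.10 to 1.11) for Cldn16, 0.93 (0.29 to 1.56) for Cldn19 and 1.07 (0.01 to 2.13) for Cldn10, with limma adjusted p of 0.126, 0.0782 and 0.177. The 8 thick limb markers, led by Umod and Egf, had a median log2 fold change of 0.07 with none called, and their sums ran from 86924 to 213940 in controls and 100290 to 173699 in Cosmc KO, with none at 0. Relative to the thick limb score, all 3 claudins were higher in Cosmc KO with no overlap, by 1.17 for Cldn10, 0.70 for Cldn16 and 1.02 for Cldn19 (exact permutation p = 0.00794 for each, adjusted p = 0.019 over the 12 pairs). For Cldn19 this rested on -3.75 ± 0.15 in controls and -2.73 ± 0.17 in Cosmc KO (SD, n = 5 and 4), and the difference was positive against all 8 single markers, with separated groups for 6. Cldn16 and Cldn10 were also higher against all 8, with separated groups for 4 and 3; against Umod alone the difference of Cldn16 was 0.06.

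The same 3 genes varied with proximal tubule RNA too. Adjusted for the proximal tubule score, their log2 fold changes were 0.32, 0.43 and 0.19 for Cldn16, Cldn19 and Cldn10 (limma adjusted p = 0.47, 0.234 and 0.703). Adjusted for the thick limb score instead, they were 0.66, 1.02 and 1.23, and all 3 were called (limma adjusted p = 0.0129, 0.000594 and 0.0019). In that fit 8 of the 10 claudins rose and 1 fell, against 13.4% and 11.8% of all genes (25.3% in all). Relative to the proximal tubule score, Cldn10 differed by -0.29 (exact permutation p = 0.397, adjusted p = 0.476). Cldn10 correlated with that score at r = 0.95 (exact permutation p = 5.24e-05, adjusted p = 0.000209) and with a rho of 0.97 (exact permutation p = 0.000165, adjusted p = 0.000397), and r was 0.96 without controls 1 and 5. With the thick limb score its r was 0.68 (exact permutation p = 0.0417, adjusted p = 0.0556; rho 0.82, exact permutation p = 0.0108, adjusted p = 0.0162), or 0.87 without control 2 and Cosmc KO 1. Pooled r with the thick limb score was 0.51 for Cldn16 and 0.56 for Cldn19 (exact permutation p = 0.154 and 0.114, adjusted p = 0.168 and 0.137). Their rho was 0.50 and 0.62 (exact permutation p = 0.178 and 0.0857, adjusted p = 0.194 and 0.103), and r rose to 0.95 and 0.84 without those 2 libraries.

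Among the distal claudins, Cldn3 and Cldn4 are barrier-forming members from neighbouring genes, Cldn4 forms a chloride path with Cldn8 in collecting duct cells, and Cldn7 is a basolateral claudin of the distal nephron. Cldn4 (chromosome 5, minus strand, 134945119 to 134946934) read 204, 577, 322, 347 and 306 in controls and 230, 2625, 1383 and 749 in Cosmc KO. Cldn3 (chromosome 5, plus strand, 134986214 to 134987472), 39.3 kb away, read 100, 164, 113, 123 and 94.9 against 77.2, 562, 281 and 240. In both genes Cosmc KO 2, 3 and 4 were above all controls and Cosmc KO 1 was not. Cldn7 (chromosome 11, plus strand, 69964779 to 69967885) read 298, 623, 387, 401 and 258 against 261, 1227, 819 and 517, with Cosmc KO 4 inside the control range as well.

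The log2 fold changes were 1.42 (95% interval 0.09 to 2.75) for Cldn4, 0.99 (-0.05 to 2.03) for Cldn3 and 0.69 (-0.23 to 1.62) for Cldn7, with limma adjusted p of 0.161, 0.2 and 0.298. Adjusted for the proximal tubule score they were 0.45, 0.25 and -0.05. The 7 collecting duct markers found, led by Hsd11b2 and Aqp2, had a median log2 fold change of 0.52 with none called; they summed to 4076 to 13633 in controls and 1965 to 29280 in Cosmc KO, and none was at 0. With their score Cldn7 correlated at r = 0.96 (exact permutation p = 8.54e-05, adjusted p = 0.000256; rho 0.98, exact permutation p = 4.96e-05, adjusted p = 0.000198). Cldn3 had r = 0.90 (exact permutation p = 0.000763, adjusted p = 0.00183; rho 0.98, exact permutation p = 4.96e-05, adjusted p = 0.000198). The r of Cldn4 was 0.89 (exact permutation p = 0.000964, adjusted p = 0.00193; rho 0.93, exact permutation p = 0.00075, adjusted p = 0.0015). Without Cosmc KO 1 and 2, r was 0.98, 0.85 and 0.87. Relative to the score the differences were 0.88 for Cldn4 (exact permutation p = 0.0317, adjusted p = 0.0544), 0.45 for Cldn3 (exact permutation p = 0.198, adjusted p = 0.265) and 0.16 for Cldn7 (exact permutation p = 0.762, adjusted p = 0.762), all with overlap.

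Cldn8 (chromosome 16, minus strand, 88560828 to 88563183), the claudin of the aldosterone-sensitive distal nephron, stood apart from the other tubule claudins. Controls read 1850, 4476, 2008, 2524 and 1944, and Cosmc KO 1027, 3341, 2935 and 2316. The highest library was control 2 and the lowest Cosmc KO 1, so the groups overlapped widely. The log2 fold change was -0.13 (95% interval -0.94 to 0.68, limma adjusted p = 0.831). Its sign turned without Cosmc KO 1 (0.23), without control 2 (0.09) and against the Cre-carrying controls (0.08). Adjusted for the proximal tubule score, the fold change was -0.73 (95% interval -1.27 to -0.19, limma adjusted p = 0.139). Of the 9 distal convoluted and connecting tubule markers, led by Klk1 and Slc12a3, 1 fell and none rose, the median was -0.51, and the sums were 78552 to 223597 in controls and 32528 to 152118 in Cosmc KO, with none at 0. Relative to their score Cldn8 was higher in Cosmc KO by 0.55 with no overlap (exact permutation p = 0.0159, adjusted p = 0.0317). Single markers divided on this: the groups were separated against Pvalb, Trpm6 and Calb1 and overlapped against the other 6, with differences of -0.05 against Klk1 and -0.10 against Trpv5. With the score Cldn8 had r = 0.90 (exact permutation p = 0.00265, adjusted p = 0.00455; rho 0.77, exact permutation p = 0.0214, adjusted p = 0.0285), which fell to 0.42 without control 2 and Cosmc KO 1, so the relation rested on those libraries.

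**Figure D3:**
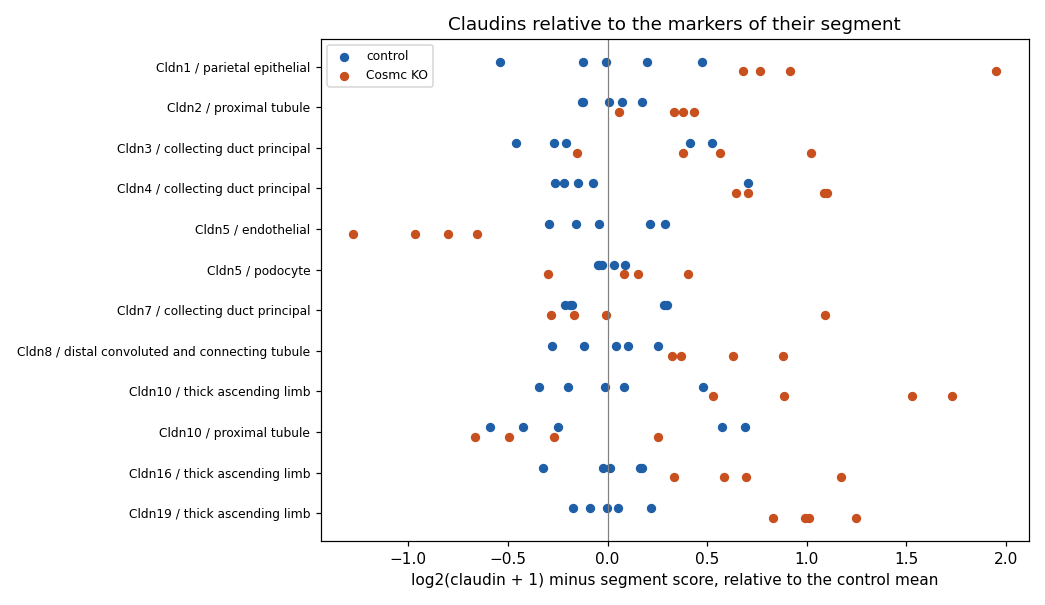
Log2(claudin + 1) minus the marker score of the named list (x axis, log2 units, shifted so that the control mean is 0), 1 point per library. Cldn19, Cldn16 and Cldn10 against the thick limb list, Cldn1 against the parietal list and Cldn8 against the distal list are higher in all 4 Cosmc KO libraries, Cldn5 is lower against the endothelial list, and Cldn5 against the podocyte list overlaps.

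Pairing the 4 same-numbered animals (the replicate block) gave 5 claudins that rose and 1 that fell, where 9.55% and 7.09% of all genes did so (16.6% in all). Cldn2, Cldn4, Cldn10 and Cldn19 were added to Cldn1 (limma adjusted p = 0.0021, 0.0158, 0.0295 and 0.0117). Without Cosmc KO 1, 7 rose and 1 fell, against 14.5% and 14.6% of all genes (29.1% in all), and Cldn3 and Cldn7 were also among those that rose (limma adjusted p = 0.00765 and 0.034). The authors' deposited table, from their DESeq2 test, gives adjusted p under the same threshold to Cldn1, Cldn3, Cldn4, Cldn10 and Cldn19 as higher and to Cldn5 as lower, with 8.58% and 7.42% of all genes called. In the authors' deposited table the adjusted p was 0.0281 for Cldn3, 0.00714 for Cldn4, 0.0382 for Cldn10 and 0.0123 for Cldn19. DESeq2 on the recovered reads called the same 5 and 1 (8.55% and 7.43% of all genes), and edgeR called Cldn1 and Cldn5 (4.30% and 4.38%, 8.69% in all). Adjusted for the proximal tubule score, Cldn1 and Cldn5 alone passed, where 2.76% of all genes were higher and 1.65% lower (4.40% in all). Against the Cre-carrying controls alone Cldn1 passed, where 1.69% were higher and 0.919% lower (2.61% in all).

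**Figure D4:**
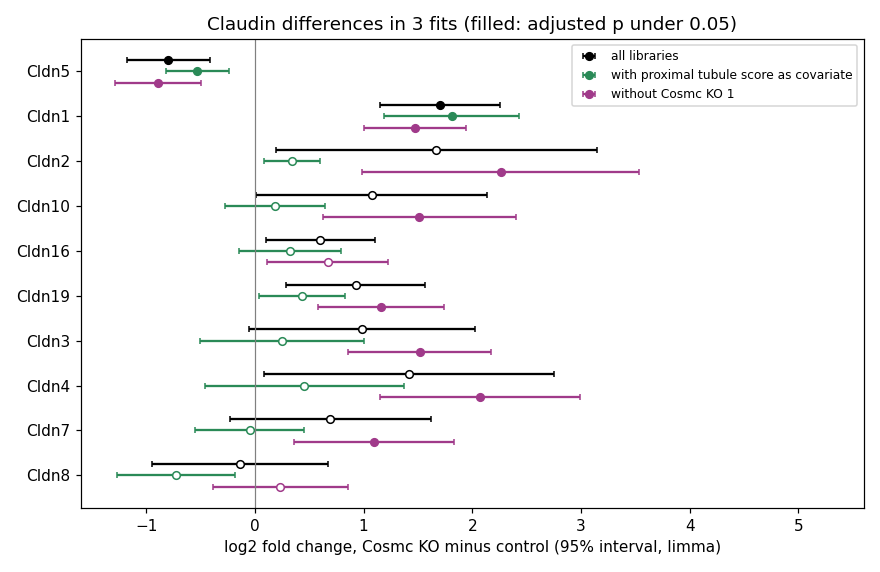
Log2 fold change of each claudin (x axis, Cosmc KO minus control, with the 95% limma interval) in the fit of all libraries (black), adjusted for the proximal tubule score (green) and without Cosmc KO 1 (purple); filled points had an adjusted p under 0.05. Cldn1 and Cldn5 are filled in all 3 fits, and the tubule claudins move towards 0 with the covariate and away from it without Cosmc KO 1, Cldn8 excepted. The green point of Cldn5 also lies nearer 0 than its black point, at -0.53 against -0.80.

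Per kilobase of exon, Cldn5 led in every library. In controls its level was 9181 ± 1550 normalized reads per kb (SD, n = 5), followed by Cldn8 at 1087 ± 468, Cldn2 at 445 ± 278 and Cldn1 at 247 ± 64.3. The remaining 6 lay between 80.8 for Cldn19 and 239 for Cldn10, and every neighbouring pair below Cldn5 had overlapping ranges. In Cosmc KO the order was Cldn5 at 5340 ± 1223 (SD, n = 4), Cldn2 at 1528 ± 1047, Cldn8 at 1021 ± 429 and Cldn1 at 812 ± 293, again with overlap between all neighbours below Cldn5. Of the 10 claudins' summed level per kb, Cldn5 made up 62.9% to 84.8% in controls and 68.7%, 31.2%, 40.0% and 60.7% in Cosmc KO 1 to 4. Cldn1 made up 1.29% to 2.45% in controls and 13.5%, 5.38%, 6.16% and 5.73% in Cosmc KO, with the highest share in Cosmc KO 1. Cldn2 and Cldn4 reached 19.8% and 11.4% in Cosmc KO 2.

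**Figure D5:**
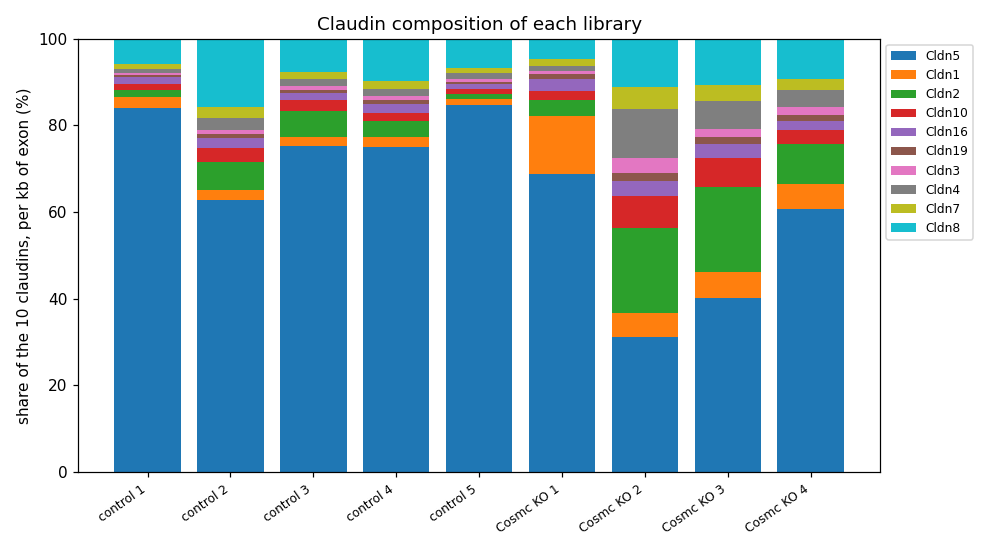
Share of each claudin in the summed level of the 10 (y axis, percent, from normalized reads per kb of exon), 1 bar per library. Cldn5 (blue) fills 62.9% to 84.8% of the control bars and 31.2% to 68.7% of the Cosmc KO bars; Cldn1 (orange) is widest in Cosmc KO 1 and Cldn2 (green) in Cosmc KO 2 and 3.

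The genes most like each claudin over the 9 libraries, by Pearson r of log2(value + 1) among 13838 genes with a mean of at least 50, are given as a description. This r pools both groups. For Cldn1 and Cldn5, whose groups were separated, it includes the difference between the groups and does not show likeness among animals of a group. Among the closest to Cldn5 were Cfap97 and Pde4b, which encodes a cyclic AMP phosphodiesterase (r = 0.992 and 0.991). Cldn1 was most like Tpm1, which encodes a tropomyosin, the stress-response gene Gadd45b and Col12a1, a fibril-associated collagen (0.989, 0.984 and 0.98). Cldn2 was closest to Enpp2, which encodes autotaxin, Igsf11 and Slc17a1, a proximal tubule phosphate and urate transporter (0.998, 0.998 and 0.997). Among the others, Cldn4 was closest to the epithelial transcription factor gene Elf3 (0.989), Cldn7 to Smim6 (0.996), Cldn10 to Mettl7a1 (0.993), Cldn8 to Kng2 (0.989), Cldn19 to Ugt2b37 (0.988), Cldn3 to C77080 (0.987) and Cldn16 to Stxbp6 (0.974). The next genes were Atpif1 and Hook2 for Cldn4, Prr15l and Prdx5 for Cldn7, Sel1l3 and Gpc4 for Cldn10, and Supv3l1 and Lnx1 for Cldn8. They were Enpp1 and Olfm1 for Cldn19, and Fam83h and Ctsf for Cldn3, and Rhou was among those for Cldn16.

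Of the other claudins, 5 were in the table and 1 fell, Cldn20, against 3.58% of all genes lower and 7.74% called in all, while Cldn6, Cldn12, Cldn15 and Cldn34c1 did not pass (log2 fold changes 0.39, 0.11, 0.31 and -0.31). Cldn20 read 27.5, 19.1, 21.0, 18.9 and 43.1 in controls and 8.58, 3.59, 7.64 and 13.1 in Cosmc KO, with no overlap (-1.59 ± 0.37 SE, limma adjusted p = 0.0327). It was not called with the proximal tubule covariate (limma adjusted p = 0.134) or in 7 of the 9 fits that left out 1 library (limma adjusted p = 0.0515 to 0.0885), Cosmc KO 1 and 4 being the exceptions. The whole of Cldn20 lies inside Tfb1m on the opposite strand, and the counting's strand setting is not given in the sources used here, so its reads cannot be told apart from those of Tfb1m. Overlaps of 40 bases in Cldn3 and 1562 bases in Cldn19 with antisense genes that are not in the table carry the same limit.

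Claudins are held at the junction by scaffold and polarity proteins. A list of 31 other tight junction genes, not limited to scaffold and polarity genes, was examined. Of these 31, 5 fell and none rose, against 3.58% and 4.16% of all genes, with a median log2 fold change of -0.02. Mpp5, which encodes the polarity scaffold Pals1, fell furthest, from 19498 ± 3650 (SD, n = 5) to 6942 ± 3396 (SD, n = 4), a log2 fold change of -1.59 ± 0.27 SE (limma adjusted p = 0.00866). Its controls read 25857, 18478, 17009, 17192 and 18955 and its Cosmc KO libraries 11761, 3896, 5547 and 6563, without overlap. Cgnl1 (paracingulin, -0.68), Prkci (the kinase aPKC iota, -0.66), Pard6b (a partner of that kinase, -0.53) and Marveld2 (tricellulin, -0.47) had limma adjusted p of 0.0198, 0.0308, 0.0314 and 0.0476. The call of Prkci and that of Pard6b were lost in 7 of the 9 fits that left out 1 library (limma adjusted p up to 0.0979 and 0.0925), that of Marveld2 in 6 (up to 0.134) and that of Cgnl1 without control 5 (0.05). After adjustment for the proximal tubule score, Mpp5 and Cgnl1 were still called (-1.18 and -0.71, limma adjusted p = 0.0101 and 0.036) and the others were not (limma adjusted p = 0.0623 to 0.18). Against the Cre-carrying controls alone, Mpp5, Pard6b and Marveld2 were called (limma adjusted p = 0.0483, 0.0356 and 0.0345), and Cgnl1 and Prkci were not (limma adjusted p = 0.0956 and 0.0759). Tjp1, which encodes the junction scaffold ZO-1, was the most abundant of the 31 and did not pass (-0.63, limma adjusted p = 0.102). In the paired fit 6 of the 31 fell and 1 rose, against 7.09% and 9.55% of all genes: Tjp1 was added to those that fell (-0.63, limma adjusted p = 0.0114), and Cgn, which encodes cingulin, rose (0.78, limma adjusted p = 0.0241). Of the 13 podocyte markers 6 also fell (median -0.92), with a score of 15.16 to 15.74 in controls and 13.77 to 15.16 in Cosmc KO; their part in the junction genes' values was not tested.

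Among 14 genes known to regulate claudins or their turnover, 1 fell and none rose, where 3.58% and 4.16% of all genes did so. Grhl1, a grainyhead family transcription factor of epithelia, fell from 137 ± 33.4 (SD, n = 5) to 47.8 ± 7.10 (SD, n = 4), with a log2 fold change of -1.48 ± 0.20 SE (limma adjusted p = 0.00288). Controls ranged from 113 to 196 and Cosmc KO from 39.0 to 56.4, and the call held in each of the 9 fits without 1 library, against the Cre-carrying controls and with the proximal tubule covariate (limma adjusted p = 0.0027 to 0.0295). The other 13, among them the E-box repressors Snai1, Snai2, Zeb1 and Zeb2, did not pass. In the paired fit 3 fell and 1 rose (7.09% and 9.55% of all genes): beside Grhl1, the kinase gene Wnk1 (-0.50) and Klhl3 (-0.76), whose product directs WNK kinases to degradation, fell and Elf3 (1.01) rose, with limma adjusted p of 0.0472, 0.0349 and 0.0407.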

How the data were processed

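Poly(A) RNA of isolated glomeruli from 9 mice was compared, with groups, replicate numbers and ages taken from the sample labels. Per the submitters' processing notes, reads were handled with DESeq2, featureCounts, STAR (2.5.2b) and Subread (1.5.2), and the build was GRCm38; the annotation release, strandedness and filters are not given in the sources used here. The deposited sample columns hold a signal: reads per gene after the authors' division by a size factor, and the mean column is likewise a deposited signal. The authors' deposited columns also give a log2 fold change, its standard error and a Wald statistic (scores, per the file headers), and p-values. Within each library 100% of values were whole multiples of 1 step (tolerance 0.01 of the step), so reads were recovered; for control 3 the step cannot be told from 1, and edgeR was also run without it.

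The design planned limma for scaled values. Log2(value + 1) was fitted in limma-trend (limma 3.58.1, R 4.3.3) with group as the only term, keeping genes that reached 10 in 4 or more libraries, with Benjamini-Hochberg adjusted p under 0.05. The fitting code was tested on simulated data. A score is the mean log2(value + 1) of a marker list. Scores were used in exact permutation tests over all 126 splits and in correlations over all 362880 pairings, each adjusted over 12 claudin and list pairs. The r with a score is not given where the groups are fully separated in either measure (Cldn1, Cldn5). The number of animals limits the precision. The limma p-values set the difference between groups against the spread between animals within groups. The exact p-values of correlations come from pairings over both groups together. All pairs of libraries differed by far more than counting noise (chi-square over its degrees of freedom 26.1 or above).

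Same-numbered control and Cosmc KO animals share an age, and within-group deviations of the pairs had correlations of 0.537, 0.507, 0.34 and 0.271. A paired fit is therefore given where it changes a result. The labels do not call the pairs littermates. For Cosmc KO 1 and 2 the same-numbered control correlated best, but for Cosmc KO 3 it was control 2 and for Cosmc KO 4 control 5. Control 5 was 30 days old, as were control 4 and Cosmc KO 4, so the pairing is uncertain. Named genes were the 10 claudins, C1galt1c1, called members of each pathway list, the 3 genes most like each claudin and the 2 most abundant markers of each list used, some of which are not reported here; the intercalated, mesangial and macrophage lists gave medians of 0.27, 0.04 and 1.14 (none of 8, 1 of 6 and 4 of 7 members higher, none lower). The members and lists were chosen with earlier results of these data known. Alternatives were edgeR 4.0.16, DESeq2 1.42.0, TMM rescaling, pseudocounts of 0.5 and 4, no filter or a mean of at least 100, covariates, Cre-carrying controls only and leaving out each library. Exon lengths and gene positions are from GENCODE M21 (GRCm38), and promoter sequences from RefSeq (GRCm38.p6). Single-marker ratios and edgeR without control 3 were chosen after seeing the data.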

Additional observations from a re-analysis of the deposited data

How the results depend on the processing

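Of 10 claudins, 2 were called. The count was 6 with DESeq2 on recovered reads and 6 with the replicate block, 9 with the thick ascending limb score as a covariate, 1 with Cre-carrying controls only, and 1 to 8 when 1 library was left out. With control 1, control 5, Cosmc KO 2 or Cosmc KO 3 left out it was 1, and without Cosmc KO 1 it was 8. It stayed at 2 with edgeR, TMM rescaling, both pseudocounts, both filters, age and the proximal tubule covariate. Cldn1 was called in every alternative run. Cldn7 had a log2 fold change of -0.049 with the proximal tubule covariate, and Cldn8 had 0.075 with Cre-carrying controls only, 0.089 without control 2 and 0.23 without Cosmc KO 1, in a range of -0.34 to 0.23 over the libraries left out. All genes called numbered 2679 with DESeq2, 2790 with the replicate block, 438 with Cre-carrying controls only, 738 with the proximal tubule covariate, 4236 with the thick limb covariate, and 523 to 4884 with 1 library left out. C1galt1c1 was at -0.61 with Cre-carrying controls only and between -0.71 and -0.51 with 1 library left out. Other claudins called were 0 in edgeR without control 3, with a mean of at least 100, with Cre-carrying controls only and with the proximal tubule covariate, and 0 to 1 with 1 library left out. Other tight junction genes called were 3 with Cre-carrying controls only, 2 with the proximal tubule covariate, 11 with the thick limb covariate and 1 to 12 with 1 library left out. Regulators called were 3 with DESeq2, 0 with a mean of at least 100 (Grhl1 is below it), 4 with the replicate block, 3 and 7 with the proximal and thick limb covariates, and 1 to 6 with 1 library left out. The cause of these shifts was not tested. Of the 12 pairs, 6 differed relative to segment markers. That number was 0 with Cre-carrying controls only and 0 with the replicate block, where the smallest p (0.0286 and 0.125) leaves little or no room to pass. It was 0 to 7 with 1 library left out. There the smallest exact permutation p is 0.0286 without 1 control and 0.0179 without 1 Cosmc KO library. With all libraries it is 0.00794, so leaving out a library also narrows the room to pass. Cldn7 relative to collecting duct markers was at -0.15 without Cosmc KO 1 (range -0.15 to 0.31), and Cldn5 relative to podocyte markers at -0.023 without Cosmc KO 2 (range -0.023 to 0.21). Correlations called were 6, and 3 to 7 with 1 library left out, 3 being without Cosmc KO 1.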

Other observations

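Among the controls, the 3 Cre-carrying animals read 16065, 11756 and 14481 for Cldn5 and the Cre-free controls 2 and 3 read 10766 and 11936. For Cldn2 the Cre-carrying controls read 733, 1346 and 483, all below the 2621 and 2216 of the Cre-free animals, and for Cldn10 they read 510, 515 and 325 against 988 and 755. Proximal tubule scores followed the same order, at 10.30, 11.31 and 9.53 in the Cre-carrying and 12.07 and 12.02 in the Cre-free controls. Cre and tubule content cannot be told apart among these 5 animals, and no test was made.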
